A study of Mus musculus with 6 samples.

Results

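The nuclear-encoded genes of the mitochondrial respiratory chain and ATP synthase were compared between leptin-treated and saline-treated lungs of leptin-deficient mice. The rule for the members uses the gene symbol and no measured value: probe sets with exactly 1 annotated symbol that begins with Nduf followed by a, b, c, s or v, with Uqcr, with Cox4 to Cox8 or with Atp5, or that is Sdha, Sdhb, Sdhc or Sdhd. This gave 156 of 22690 probe sets, for 84 of 12393 genes named on the array: 74 probe sets of 39 genes in complex I, 7 of 4 genes in complex II, 15 of 8 genes in complex III, 32 of 16 genes in complex IV and 28 of 17 genes in complex V. A further 8 probe sets matched in name but carry several symbols, and were left out. Among the genes of complex I are 5 assembly factors (Ndufaf1, Ndufaf3, Ndufaf4, Ndufaf5 and Ndufaf7), which are not subunits. Ndufa4, counted there by its symbol, is now placed in complex IV, and Cox7a2l in complex IV is a factor that joins complexes into supercomplexes. Every mouse was a B6.V-Lepob/J female of 1 month, homozygous for the ob mutation of the leptin gene and so without functional leptin. Of these, 3 had received leptin and 3 saline, both given in that same deficient background, and whole lung RNA of 1 animal per array was hybridised to Affymetrix mouse expression arrays. A lean or wild-type group was not analysed here, and no source used here states the dose, route or duration of the treatment. The question is whether the transcripts of the chain differ in lung once the absent hormone has been given.

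The respiratory chain sits in the inner mitochondrial membrane. Complex I takes electrons from NADH and complex II from succinate, both pass them through ubiquinone to complex III, and cytochrome c carries them on to complex IV, where oxygen is reduced. Complexes I, III and IV pump protons, and complex V, the ATP synthase, makes ATP as the protons flow back. Most subunits are encoded in the nucleus, and several subunits of complex IV exist as isoforms that differ between tissues. The nuclear respiratory factor NRF1, the ETS factor GABP and YY1 are known regulators of nuclear respiratory chain genes.

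Because these genes are known to share regulators, their promoters were searched in both strands for 3 motifs, none of which is contained in another: GCGC, any base and TGCGC for NRF1, CCGGAAGT for ETS factors such as GABP, and AAGATGGCG for YY1. RefSeq promoter windows (GRCm38.p6, 250 bases before to 50 after the transcription start) were found for 70 of the 84 genes, as 75 windows. The NRF1 motif occurred in 16 of 70 member genes (22.9%), against 5.19% of 27025 genes with a window. The ETS motif was found in 5 (7.14%, against 4.31%) and the YY1 motif in 6 (8.57%, against 1.64%), and 26 (37.1%) held at least 1 of the 3, against 10.3% of all genes. By complex, NRF1 matches fell in 6 of 36 genes of complex I, 2 of 3 of complex II, 1 of 5 of complex III, 1 of 11 of complex IV and 6 of 15 of complex V. These matches describe letters in a window, not bound sites. Of the genes with NRF1 matches, 3 are described further below. These are Ndufa5, for its difference between groups, and Sdhd and Cox6a1, for probe sets that read in opposite directions on 1 array. A link between the matches and those values was not tested. The windows of these 3 genes are shown. They lie on the minus strand at chr6:24527477-24527776, chr9:50603800-50604099 and chr5:115348909-115349208, and capitals mark the NRF1 matches, which begin 190 bases before the start in Ndufa5, 79 in Sdhd, and 162 and 117 in Cox6a1.
Ndufa5: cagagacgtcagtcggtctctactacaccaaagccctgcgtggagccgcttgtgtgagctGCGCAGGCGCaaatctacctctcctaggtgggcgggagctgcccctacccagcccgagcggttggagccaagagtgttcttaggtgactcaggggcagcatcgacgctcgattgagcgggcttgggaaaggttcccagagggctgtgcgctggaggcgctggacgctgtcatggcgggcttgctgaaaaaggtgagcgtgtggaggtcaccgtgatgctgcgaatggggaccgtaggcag
Sdhd: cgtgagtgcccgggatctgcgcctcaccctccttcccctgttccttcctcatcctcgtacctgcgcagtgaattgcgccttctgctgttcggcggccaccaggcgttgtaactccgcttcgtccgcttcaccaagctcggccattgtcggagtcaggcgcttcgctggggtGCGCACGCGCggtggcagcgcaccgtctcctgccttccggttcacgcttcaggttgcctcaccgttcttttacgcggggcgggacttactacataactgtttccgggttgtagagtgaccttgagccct
Cox6a1: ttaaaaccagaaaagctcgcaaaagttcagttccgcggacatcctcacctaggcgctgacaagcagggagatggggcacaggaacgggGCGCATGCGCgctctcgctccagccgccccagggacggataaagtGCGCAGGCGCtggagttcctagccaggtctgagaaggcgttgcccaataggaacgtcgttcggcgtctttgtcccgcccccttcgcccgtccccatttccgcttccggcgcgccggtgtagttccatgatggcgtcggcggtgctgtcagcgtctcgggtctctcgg
A second Ndufa5 window, from a start at which the same match lies 26 bases upstream, overlaps the first. The members with an NRF1 match had a median log2 difference between leptin and saline of -0.001 (8 of 16 higher with leptin), and those without one -0.03 (20 of 54 higher).

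One array stood apart from the rest before any comparison was made. On saline replicate 1 the member probe sets correlated with those of the other 5 arrays at Pearson's r of 0.422 to 0.441 on the log2 scale, while the other 5 arrays correlated with one another at 0.986 to 0.993. Values are therefore given first for the 3 leptin arrays against saline replicates 2 and 3, and then with all 6 arrays. Surfactant genes of alveolar type II cells were bright, as in lung: Sftpa1 read between 20275.5 and 22973.3 on these 5 arrays, and 2264.8 on saline replicate 1. All arrays had been scaled to nearly the same trimmed mean (499.96 to 499.98 without the lowest and highest 2% of probe sets). The distribution on saline replicate 1 still differed. Its 10th percentile was 57 and its median 323.8, against 16.3 to 19.2 and 220.6 to 238.1 on the others. Its 90th percentile was 1255, against 1450 to 1502. Precision is set by the number of arrays. The p-values measure the spread between these samples, 1 animal each.

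No respiratory chain gene passed the test in either direction. In the 5-array fit, 0 of 148 member probe sets bright enough to be tested reached an adjusted p under 0.05 (limma, Benjamini-Hochberg over 15838 probe sets), where the share over all probe sets was 0.0442%. At an unadjusted p under 0.05 there were 2 of 148 (1.35%), against 4.6% of all probe sets; both were higher with leptin, against 2.61% of all. The rule that the series states (a 1.5-fold change, p under 0.05 and most pairwise comparisons) called 0, against 0.492% of all. Leptin and saline arrays did not overlap for 21 of 148 (14.2%), against 19.6% of all. Leptin was higher in 11 of these and lower in 10, where the shares over all probe sets were 9.92% and 9.66%. The 8 member probe sets that were too dim for the test are duplicates of genes that other probe sets cover, so each of the 84 genes was tested, represented by its brightest probe set.

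The differences were bounded closely. The 84 log2 differences (leptin minus saline) ran from -0.34 for Ndufaf4 to 0.36 for Ndufa5, with a median of -0.03 and a median standard error of 0.14. Over probe sets, the 95% interval lay within a 2-fold change in both directions for 146 of 148 members (98.6%) and within 1.5-fold for 125 (84.5%), against 94.8% and 58.2% of all probe sets. For all 84 genes the interval lay within 2-fold, and for 74 it lay within 1.5-fold. Of the 9365 genes tested on the array, 8958 met the first bound and 5889 the second. The members were also brighter than the array as a whole. A mean of at least 1000 on these 5 arrays was reached by 106 of 156 member probe sets, against 3583 of 22626 in all. The fit let the variance follow brightness, and the shares were not compared at like brightness. Whether the intervals of the members are narrower than their brightness alone would give was not tested. In total 32 member genes were higher with leptin and 52 lower, and over all tested genes 4527 were higher and the median was -0.01. A whole-lung array cannot tell fewer cells of a type from less RNA per cell, which holds for every value below.

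**Figure D1:**
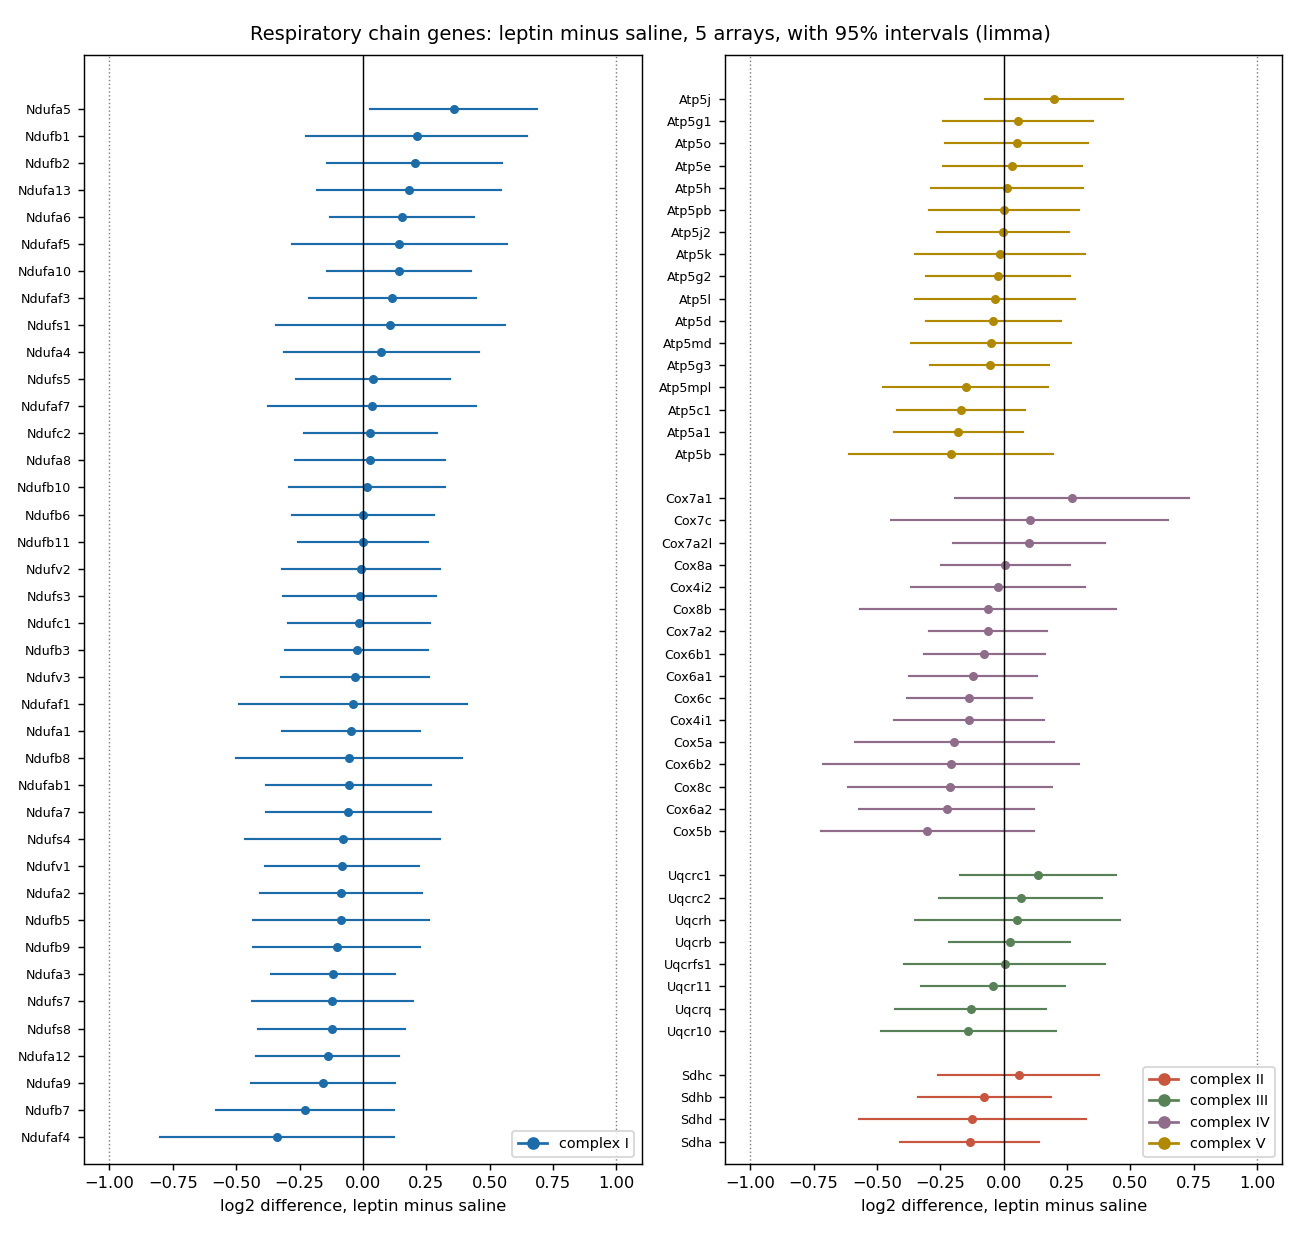
Log2 difference between leptin and saline arrays (x axis; points) for each of the 84 genes, with its 95% interval (lines), grouped by complex, from the 3 leptin arrays and saline replicates 2 and 3. Dotted lines mark a 2-fold change, which no interval reaches, and the interval of Ndufa5 is the one that leaves out 0.

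In complex I, 17 of 39 genes were higher and 22 lower with leptin, with a median log2 difference of -0.02. The iron-sulphur and flavin subunits that carry electrons from NADH to ubiquinone lay close to 0. Ndufv1, which holds the flavin where NADH is oxidised, read 1702.9, 1794.3 and 1520.1 on leptin replicates 1 to 3 and 1634.2 and 1911.0 on saline replicates 2 and 3, a difference of -0.08 ± 0.14 (SE). Its partner Ndufv2 differed by -0.01 ± 0.14, and Ndufs1, the largest iron-sulphur subunit, by 0.11 ± 0.20. The subunits next to the ubiquinone site, Ndufs3, Ndufs7 and Ndufs8, differed by -0.01 ± 0.14, -0.12 ± 0.14 and -0.12 ± 0.13. In all of these the groups overlapped.

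Ndufa5, an accessory subunit of the arm that holds the ubiquinone site, was the complex I gene that stood farthest from 0. On its brighter probe set the leptin arrays read 760.8, 656.3 and 723.2, and the saline arrays 511.6 and 592.9. All 3 leptin arrays lay above both saline arrays, and saline replicate 1 read 398.7. The difference was 0.36 ± 0.15 on the log2 scale (95% interval 0.03 to 0.69; limma unadjusted p = 0.0366, adjusted p = 1.00). Its other probe set read 404.7, 706.6 and 530.1 against 594.2 and 537.6, a difference of -0.08 ± 0.21, so the 2 probe sets did not give the same direction. Among the membrane-arm subunits, Ndufb2 read 1958.3, 2520.5 and 1776.8 with leptin against 1744.6 and 1831.8, a difference of 0.20 ± 0.16. Ndufb7 read 1694.1, 2465.7 and 1963.4 against 2384.8 and 2348.1, a difference of -0.23 ± 0.16. In both genes leptin replicate 2 was the highest of the 5 arrays and the groups overlapped. Ndufaf4, an assembly factor, differed by -0.34 ± 0.21 in its brighter probe set and by 0.18 ± 0.24 in the other. It was the 1 gene of 42 with several tested probe sets in which these lay more than 0.5 apart.

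Complex II, succinate dehydrogenase, has 4 subunits, all encoded in the nucleus, and its median was -0.10 with 1 gene higher and 3 lower. Sdha, the flavin subunit that oxidises succinate, read 2640.8, 3066.5 and 2592.3 with leptin and 3014.4 and 3048.1 with saline. One leptin array lay above both saline arrays and the others below, and the difference was -0.13 ± 0.12. The iron-sulphur subunit Sdhb differed by -0.08 ± 0.12, and Sdhc, one of the 2 membrane anchors, by 0.06 ± 0.14. Sdhd, the other anchor, read 924.9, 1097.0 and 1305.3 against 960.2 and 1494.8 in its brighter probe set, a difference of -0.12 ± 0.20. Its dimmer probe set read 301.3, 200.5 and 203.1 against 187.6 and 161.3, where the leptin arrays were all higher, and the difference was 0.37 ± 0.22 (limma unadjusted p = 0.125). Without saline replicate 3 the median of complex II turned to 0.04.

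Complex III gave a median of 0.01, with 5 of 8 genes higher. Its core subunits Uqcrc1 and Uqcrc2 differed by 0.14 ± 0.14 and 0.07 ± 0.15, and the Rieske iron-sulphur protein Uqcrfs1, which hands electrons to cytochrome c1, by 0.00 ± 0.18. Uqcrc1 read 2038.9, 2210.7 and 1975.2 with leptin and 1675.2 and 2117.2 with saline, so saline replicate 3 fell among the leptin arrays. Of the small subunits, Uqcrq and Uqcr10 were the lowest with -0.13 ± 0.14 and -0.14 ± 0.16. The interval of Uqcrb, a ubiquinone-binding subunit, ran from -0.22 to 0.26, and its brighter probe set read 11858.8, 12577.3 and 12801.8 with leptin against 11296.2 and 13196.3. The median of complex III took either sign as 1 array at a time was left out, reaching -0.08 with saline replicate 2 left out and 0.07 with saline replicate 3 left out.

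In complex IV, cytochrome c oxidase, 12 of 16 genes were lower with leptin and 4 higher, with a median of -0.10. None of the 16 had an unadjusted p under 0.05, and the intervals of 10 lay within 1.5-fold. The median stayed below 0 whichever of the 5 arrays was left out (-0.11 to -0.04). The isoforms found in most tissues were measured at high intensity. Cox4i1, which regulates the catalytic core, read 4855.5, 6496.9 and 5487.6 with leptin and 6216.1 and 6049.1 with saline, a difference of -0.14 ± 0.13. Leptin replicate 2 was the highest and leptin replicate 1 the lowest of the 5 arrays. Cox6a1, Cox6b1, Cox7a2 and Cox8a differed by -0.12 ± 0.11, -0.08 ± 0.11, -0.06 ± 0.11 and 0.01 ± 0.12. Of these, Cox6b1 had no overlap: 4846.9, 4831.7 and 5169.4 with leptin lay below 5241.6 and 5192.8 with saline, by a margin smaller than the spread among the leptin arrays. Cox5b, a nuclear subunit that binds zinc, was the complex IV gene farthest below 0, at -0.30 ± 0.19. Its brightest probe set read 7214.8, 8918.2 and 5222.7 against 9385.1 and 7832.4, while its other 4 tested probe sets differed by between -0.18 and 0.09.

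The tissue isoforms of complex IV had no unadjusted p under 0.05 either. Cox4i2, the isoform known for its expression in lung and its response to oxygen, read 767.9, 707.8 and 591.5 with leptin and 683.1 and 709.5 with saline, a difference of -0.02 ± 0.16 (95% interval -0.37 to 0.32). The isoforms of heart and skeletal muscle took both signs. Cox6a2 read 1617.7, 1606.8 and 1307.9 against 2001.2 and 1551.0, a difference of -0.23 ± 0.16. Cox7a1 read 215.7, 268.5 and 303.5 against 182.6 and 245.5, a difference of 0.27 ± 0.21. Cox8b differed by -0.06 ± 0.23. In each of these the groups overlapped. Cardiac muscle markers were well measured in these lungs, with 11 of 11 tested, 2 higher and 9 lower with leptin and a median of -0.05. Summed over the list, the intensities with leptin were 17840, 22630 and 23650, and with saline 22700 and 21080. Of 10 skeletal muscle markers 7 were too dim to be tested. The part of muscle cells in the isoform values was not tested. The isoforms known mainly from testis, Cox6b2 and Cox8c, differed by -0.21 ± 0.23 and -0.21 ± 0.18. Cox7a2l differed by 0.10 ± 0.14, and Ndufa4, which may be read with this complex, by 0.07 ± 0.17.

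**Figure D2:**
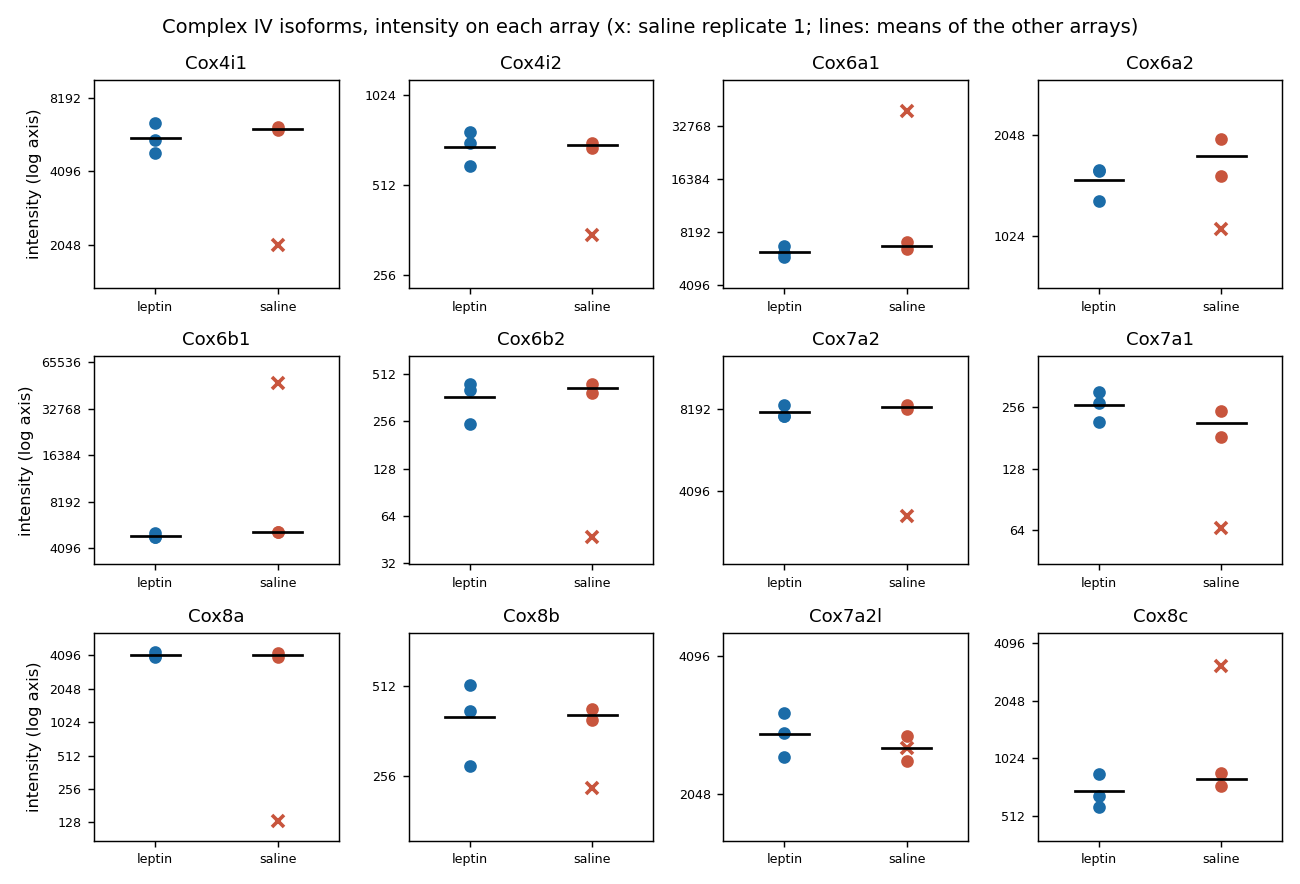
Intensity (log axis, a scale of its own in each panel) of 12 genes of complex IV on each array, leptin at left and saline at right. Points are arrays, crosses are saline replicate 1 and lines are the means of the 3 leptin arrays and of saline replicates 2 and 3. Points of the 2 groups lie at like heights, while the crosses lie far above them in Cox6a1, Cox6b1 and Cox8c, among them in Cox7a2l and below them in the other panels.

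Complex V gave a median of -0.02, with 5 of 17 genes higher and 12 lower. Of the subunits of the catalytic head and central stalk, the alpha, beta and gamma subunits had differences below 0 and the delta and epsilon subunits lay near 0. Atp5a1, the alpha subunit, read 5389.1, 6247.2 and 5438.0 with leptin against 6609.7 and 6260.6 with saline, a difference of -0.18 ± 0.11 (limma unadjusted p = 0.148). Atp5c1, the gamma subunit that turns within the head, read 3923.1, 3576.4 and 3531.5 against 4227.4 and 4045.8, a difference of -0.17 ± 0.11 (unadjusted p = 0.166). In both genes every leptin array lay below both saline arrays, which for Atp5a1 rests on a gap between leptin replicate 2 and saline replicate 3 that is small beside the spread among the leptin arrays. Atp5b, the catalytic beta subunit, differed by -0.21 ± 0.18, and its leptin arrays spread from 3633.6 to 5886.6 around saline values of 4987.9 and 5134.0. The delta and epsilon subunits Atp5d and Atp5e differed by -0.04 ± 0.12 and 0.03 ± 0.12, and a second probe set of Atp5d by 0.02.

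The membrane ring of complex V is built from 1 protein that 3 genes encode. Atp5g1, Atp5g2 and Atp5g3 differed by 0.06 ± 0.13, -0.02 ± 0.13 and -0.06 ± 0.11, each with overlapping groups. Atp5j, coupling factor 6 of the outer stalk, had the highest difference of the complex, 0.20 ± 0.12, from 3516.5, 3870.8 and 3880.5 with leptin and 3011.2 and 3539.7 with saline. Atp5o, the stalk subunit that gives the enzyme its sensitivity to oligomycin, differed by 0.05 ± 0.13 in its brighter probe set. Its dimmer one read 193.6, 175.2 and 257.0 with leptin against 133.4 and 140.3, with no overlap, a difference of 0.52 ± 0.22 (limma unadjusted p = 0.0372, adjusted p = 1.00). This probe set and that of Ndufa5 are the 2 members that had an unadjusted p under 0.05. Saline replicate 1 read 211.4 on it, within the range of the leptin arrays. The inhibitor gene Atp5if1 is not among the members.

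The chain genes as a whole spread more among the leptin arrays than between the groups. After subtraction of each gene's mean over the 5 arrays, the median of the 84 genes was -0.07 on leptin replicate 1, 0.08 on leptin replicate 2 and -0.01 on leptin replicate 3, and 0.00 and 0.04 on saline replicates 2 and 3. The leptin arrays thus spanned 0.15 and both saline arrays lay within that span, while over all 9365 genes the leptin medians spanned 0.05. On leptin replicate 1 all 5 complexes had medians below 0, from -0.06 for complex V to -0.14 for complex III, and 20 of 84 genes lay above their own mean, where 54.1% of all genes did. On leptin replicate 2, 62 of 84 lay above, against 51.9% of all genes, and complex II was the one complex with a median below 0 (-0.01). Quantile normalization left the medians of these arrays at -0.06 and 0.06 (a span of 0.12 among the leptin arrays), and a common median put them at -0.14 and 0.10 (a span of 0.24). The summed cardiac markers were also lowest on leptin replicate 1 of the 5 arrays, but were highest on leptin replicate 3. Type II markers summed to 103000, 111400 and 98980 with leptin, and to 112900 on each of saline replicates 2 and 3. The part of either cell type in the spread was not tested. Without leptin replicate 1 the group medians of complexes I and V turned to 0.03 and 0.03, and without saline replicate 2 that of complex I turned to 0.02.

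**Figure D3:**
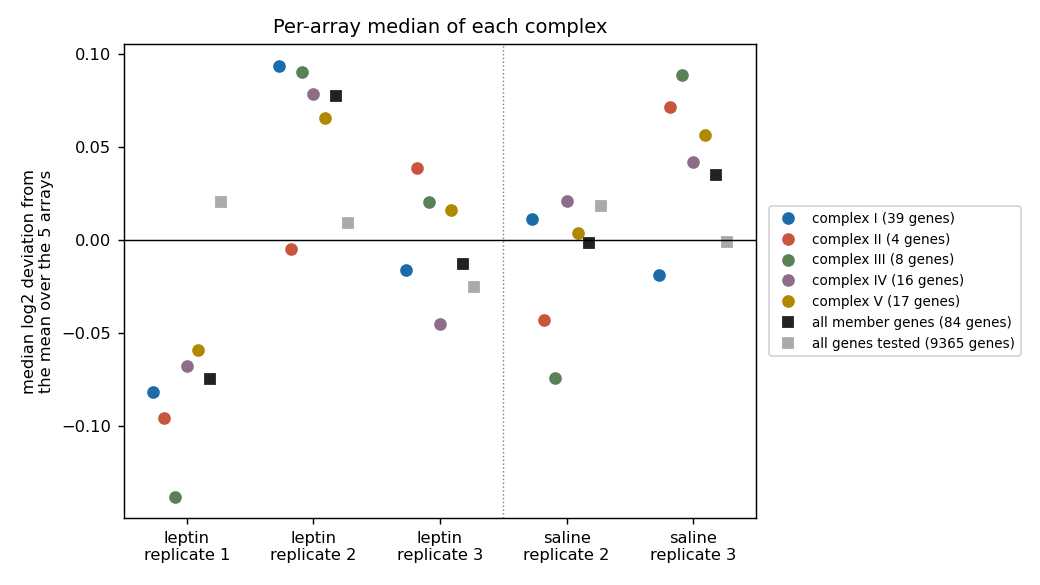
Median log2 deviation from each gene's mean over the 5 arrays (y axis) on each array (x axis), for the 5 complexes (circles), all 84 member genes (black squares) and all 9365 genes tested (grey squares). Leptin replicates 1 and 2 lie on opposite sides of 0, at -0.07 and 0.08 for all members, with the saline arrays between them.

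Where a gene had several probe sets, these lay close together and often on both sides of 0. In 42 genes with at least 2 tested probe sets, the differences within a gene spread over a median of 0.14 log2 units, close to the median standard error of single probe sets, and in 21 they took both signs. Probe sets whose names end in _s_at or _x_at can bind transcripts of related genes or pseudogenes, which the respiratory chain has in number, and 17 and 26 members are of these kinds.

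Saline replicate 1 gave another picture, in which single genes of the chain read far from every other array. Of the 156 member probe sets, 101 (64.7%) read below all 5 other arrays, 44 (28.2%) above all of them and 11 within their range. Over all 22626 probe sets 33.8% read below and 54.6% above. Bright probe sets shared this direction whatever their gene: with a mean of at least 1000 on the other arrays, 79.2% of 106 members and 77.8% of 3583 probe sets in all read below. The bright members lay farther down, with 54 of 106 more than 4-fold lower, against 1385 of 3583. Their median log2 ratio of saline replicate 1 to the mean of the other arrays was -2.05, against -1.485 for all bright probe sets. In every complex the median of this ratio was negative, from -0.66 in complex IV to -2.44 in complex II. Over all probe sets, bright and dim, it was 0.53.

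Probe sets of the same gene often moved in opposite directions on this array. Uqcrb read 405953.2 there in one probe set, above all 5 other arrays, and 419.9 in the other, below the 902.9 to 1328.7 of the rest. For Sdhd one probe set read 2696.9, where the other arrays lay between 161.3 and 301.3, and the other read 62.3, where they lay between 924.9 and 1494.8. Cox6a1 read 40106.4 and 980.5 in its 2 probe sets, against 5878.3 to 7176.3 and 4185.9 to 5095.6. Cox6b1 read 47853.6 and 673.5, against 4831.7 to 5241.6 and 3600.8 to 4460.2. In 28 of 42 genes the probe sets took opposite sides on this array, and their log2 ratios to the other arrays spread over a median of 3.38 units within a gene. The 28 count any change of sign, and in some the higher ratio was near 0 (0.003 in Atp5d, 0.08 in Ndufb5). The spread exceeded 2 units in 31 of the 42. Whether genes outside the chain differ in this was not tested. What set the probe sets of a gene apart was not tested.

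**Figure D4:**
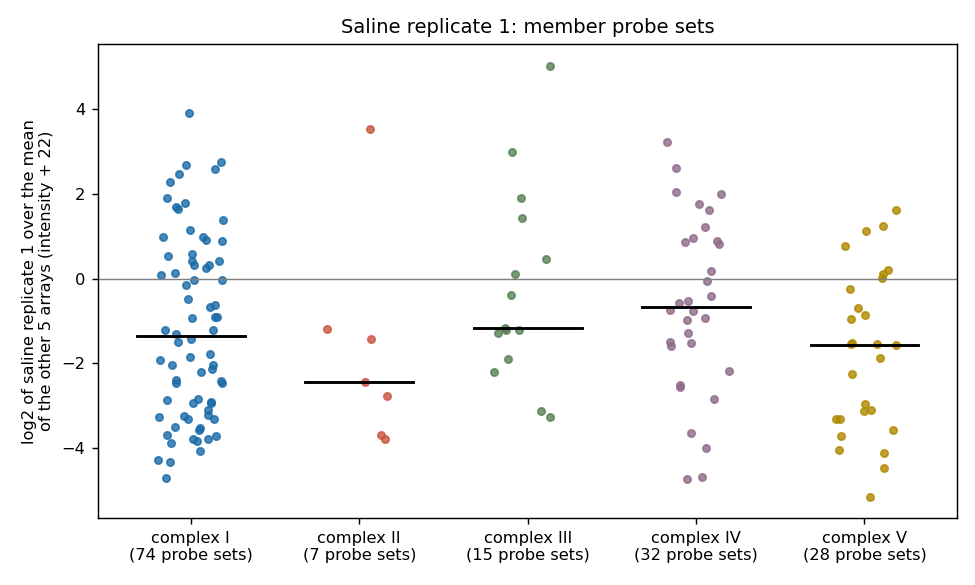
Log2 ratio of saline replicate 1 to the mean of the other 5 arrays (y axis, after 22 was added to each intensity) for each member probe set (points), by complex (x axis), with medians as bars. Points lie on both sides of 0 in every complex, and the medians run from -0.66 in complex IV to -2.44 in complex II.

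With all 6 arrays, the size of the complex medians came from that array. The median log2 difference of the 83 genes tested became 0.50, with 62 higher and 21 lower with leptin, while the median of all genes was 0.02. The medians were 0.57, 0.84, 0.48, 0.19 and 0.61 for complexes I to V. These sizes rest on saline replicate 1, since without it the medians are the values near 0 given above. With limma's array weights they were -0.01, -0.05, 0.04, -0.10 and -0.01. The brightest probe set was chosen within each fit, so some genes switched. On their 5-array probe sets Cox8a and Cox5a were at 1.588 and 1.173, above the 6-array maximum of complex IV, 0.84. Over all tested probe sets, without this choice, the 6-array medians were 0.51, 0.70, 0.44, 0.28 and 0.58. On 5 arrays they were -0.05, -0.08, 0.02, -0.06 and -0.01. No member passed the adjusted threshold among 147 tested, and the share over all probe sets was 0%. None had an unadjusted p under 0.05 either, against 0.385% of all probe sets. The series' rule called 0 members, against 0.202% of all. Groups did not overlap for 8 of 147 (5.44%), against 9.1% of all. The 95% interval lay within 2-fold for 21 members (14.3%, against 24.9% of all probe sets), where it did for 146 of 148 on 5 arrays. The 6-array fit therefore puts much wider bounds on these genes. Of the 8 probe sets without overlap, 5 were higher with leptin on all 3 arrays. These were of Ndufa5 (0.51), Ndufa10 (1.35), Ndufa12 (0.98), Ndufb1 (0.57) and Atp5pb (1.465). The 3 lower ones were of Cox6b1 (-1.14), Ndufv2 (-0.55) and Uqcrq (-0.85). In the other tested probe sets of these genes the groups overlapped in this fit. Those of Ndufa5 and Cox6b1 were at -0.89 and 0.82. Those of Ndufv2 were at 0.95 and 0.32, and those of Uqcrq at 0.63, -0.78 and -1.075. Those of Ndufa12 were at 0.30, -0.07 and -0.70, and that of Atp5pb at 0.62.

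Other mitochondrial genes around the chain did not pass the test either. In the 5-array fit, 0 genes of 7 lists passed the adjusted threshold, with 0.0442% of all probe sets past it. Of the assembly factors outside the symbol rule, 11 of 23 were higher and 12 lower with leptin, with a median log2 difference of -0.03. The 2 with the smallest p were Sco2, which delivers copper to complex IV, at 0.50 ± 0.23 (limma unadjusted p = 0.0537, adjusted p = 1.00), and Acad9, an assembly factor of complex I, at -0.64 ± 0.30 (unadjusted p = 0.0557, adjusted p = 1.00). Sco2 read 270.0, 175.5 and 185.5 with leptin and 129.8 and 150.3 with saline, without overlap. Among electron carriers and donors 8 of 15 were higher, with a median of 0.02, and among enzymes of the tricarboxylic acid cycle and pyruvate dehydrogenase 6 of 16, with a median of -0.02. In the first list Coq8a and Coq3 of ubiquinone synthesis had the smallest p, at -0.18 ± 0.17 and 0.20 ± 0.19. In the second these were Suclg1, of succinyl-CoA ligase, and Dlat, of pyruvate dehydrogenase, at 0.17 ± 0.13 and -0.21 ± 0.19. Mitochondrial ribosomal proteins split into 34 higher and 40 lower of 74, with a median of -0.02, and Mrpl33 at -0.43 ± 0.21 and Mrps21 at 0.29 ± 0.15 had their smallest p.

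The regulators of mitochondrial biogenesis lay on the higher side, with 14 of 17 above 0 and a median of 0.08, where 48.3% of all genes tested were above 0. Their 2 smallest p-values went in opposite directions. Tfb2m, a transcription factor of mitochondrial DNA, read 244.0, 346.3 and 375.6 with leptin and 726.2 and 362.2 with saline, a difference of -0.66 ± 0.27 (limma unadjusted p = 0.0338, adjusted p = 1.00) in which saline replicate 2 stood alone. Ppargc1b, a coactivator of the nuclear respiratory factors, read 256.2, 151.2 and 101.7 against 92.2 and 105.5, a difference of 0.59 ± 0.32 that leptin replicate 1 led. Its relative Ppargc1a was dim, at 162.4, 141.4 and 159.1 against 127.3 and 129.1, a difference of 0.23 ± 0.21. With all 6 arrays, 6 of 17 regulators were higher, but the probe set of a gene was chosen again in that fit. The counts of 14 and 6 thus do not rest on the same probe sets throughout. They also differ by saline replicate 1, which enters only the second. For that array the list summed to 12250, where the others gave 6269 to 6737. Ppargc1b read 1318.2 there, above every other array, and its difference turned to -0.57 with 6 arrays. Gabpa read 164.7 there, below every other array, and its difference rose from 0.11 to 0.58. The part of each in the lower count was not tested. Yy1, at -0.72 with 6 arrays, switched to another probe set. Its 5-array probe set read 1232.9, 1161.1 and 1282.4 with leptin against 570.1, 1092.1 and 1253.1 on saline replicates 1 to 3. Of the nucleotide and phosphate carriers and uncoupling proteins 4 of 8 were higher (median -0.02), with Slc25a14 at 0.24 ± 0.27 and Vdac2 at -0.10 ± 0.13. Of the oxidant defence genes 1 of 9 was higher (median -0.06). The glutathione peroxidases Gpx4 and Gpx1 had the smallest p there, at -0.25 ± 0.14 and -0.27 ± 0.16. Subunits encoded in mitochondrial DNA had no probe set with a single symbol here.

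Markers of other cell types are given beside these values. Of 6 erythroid markers tested on 5 arrays, 3 passed and were lower with leptin, where 0.0442% of all probe sets passed: the haem synthesis enzyme Alas2, the mitochondrial iron importer Slc25a37 and the red cell enzyme Bpgm. Alas2 was at -1.20 ± 0.15 (limma adjusted p = 0.0496). Of the 6 tested, 5 were lower with leptin and 1 higher, Ermap at 0.55 ± 0.49. Summed over the list, erythroid intensities were 5999, 6268 and 4895 with leptin, and 13990 and 11150 with saline. Alas2 made up 3628.8, 3874.2 and 2846.1 of these with leptin, and 8448.6 and 7325.4 with saline. On saline replicate 1 the sum was 1566, and with all 6 arrays 0 erythroid markers passed, the median of the list was -0.10, and the difference of Alas2 turned to 1.12 and that of Slc25a37 to 0.27. Ucp1, which defines brown fat, was at or below 13.4 on these 5 arrays, under the pseudocount of 22.0. Of the 3 adipocyte markers tested, 2 were higher with leptin, and the list's median was 0.12. Adipoq, the adipocyte hormone adiponectin, read 512.8, 624.0 and 655.3 with leptin against 428.1 and 475.4, without overlap, a difference of 0.38 ± 0.16 (limma unadjusted p = 0.0386, adjusted p = 1.00). Fabp4, a fatty acid carrier of fat cells, differed by 0.12 ± 0.18. Type II and type I alveolar markers had medians of -0.10 and -0.02, club cell markers -0.10 (0 of 5 higher), ciliated cell markers 0.19, macrophage markers 0.12 and B cell markers 0.44 (6 of 7 higher), and none of these lists had a gene past the threshold. Their part in the differences of the chain was not tested.

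**Figure D5:**
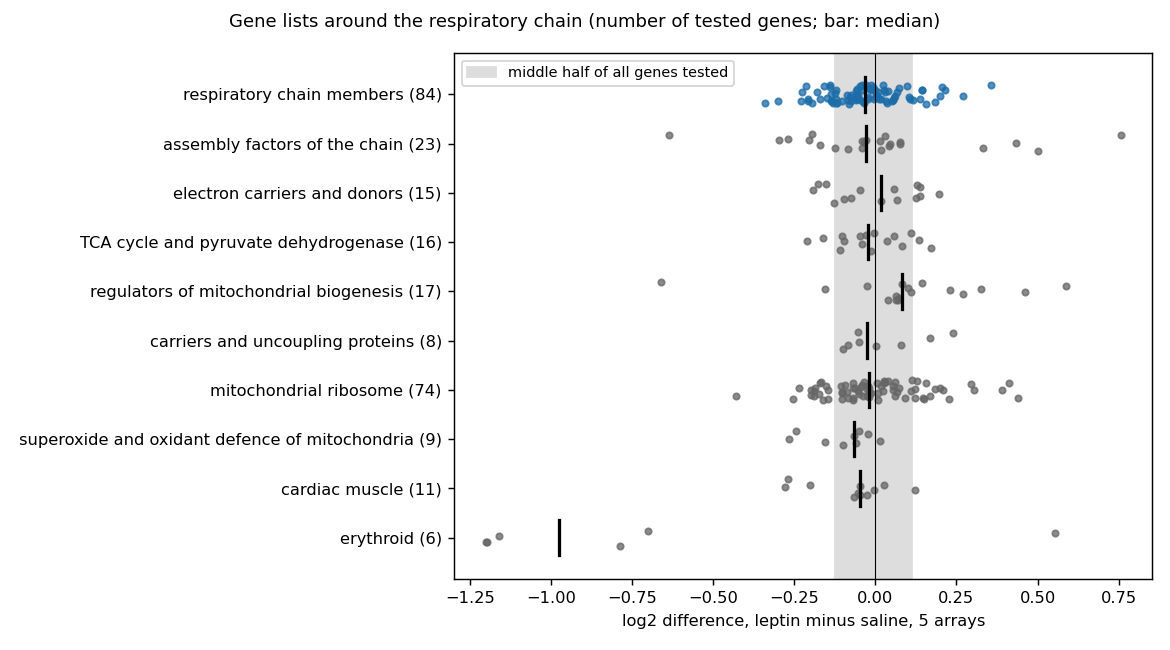
Log2 difference between the 3 leptin arrays and saline replicates 2 and 3 (x axis) for each gene (points) of the respiratory chain, of 7 lists of mitochondrial genes and of 2 lists of cell type markers (y axis, with the number of tested genes). Bars are medians and the grey band holds the middle 50% of all genes tested; the medians of the mitochondrial lists lie in the band, and that of the erythroid markers lies at -0.97.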

How the data were processed

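Total RNA of 6 mouse lungs was hybridised to 1 array each after 2 rounds of amplification from an oligo(dT) primer, per the labels' protocols. The deposited values are linear intensity values per probe set, and the software that summarised them is not given in the sources used here. Probe sets were named from the platform annotation: 20380 of 22690 carry 1 symbol, 691 several and 1555 none, and the 64 control probe sets were left out. Values were turned into log2(intensity + 22.0), 22.0 being the 10th percentile, which understates changes of dim probe sets. The dimmest 30% by mean were dropped, and limma 3.58.1 under R 4.3.3 tested the other 15838 (lmFit, eBayes with a trend, leptin minus saline, two-sided) at a Benjamini-Hochberg adjusted threshold of 0.05. The series' rule asks for 1.5-fold, p under 0.05 and 6 of 9 pairwise comparisons (4 of 6 on 5 arrays), and was run with a 2-sample test with pooled variance. The fits were tested on simulated data. No test was made over members or lists. The members, lists and markers were chosen with earlier results of these data known. Named genes are, per complex, the 2 higher and 2 lower with the smallest p, core subunits by role, the isoforms of complex IV, genes whose probe sets differ by over 0.5 and members at p under 0.05 without overlap, and for lists the 2 with the smallest p; values on saline replicate 1 and other examples were chosen after they were seen. In their deviations from the group means, arrays with the same replicate number had correlations of 0.103 to 0.144, and arrays with different numbers of -0.147 to 0.0491, so the numbers may pair the arrays, on the evidence of the values alone. Alternatives covered normalization, pseudocount, filter, replicate block, variance prior, array weights, arrays left out, threshold and the probe set that stands for a gene.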

Additional observations from a re-analysis of the deposited data

How the results depend on the processing

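With 5 arrays and with all 6, 0 member probe sets passed the adjusted threshold under every alternative run, including an adjusted threshold of 0.10, the series' rule, the replicate block and each array left out. Of the 5-array complex medians, 1 moved by more than the spread between arrays: complex II without saline replicate 3. Its median ran from -0.117 to 0.0396 as each array was left out. For the 6-array medians this rule cannot decide, because their spread includes saline replicate 1. In complex II that spread was 1.07, so a change from 0.84 to -0.10 without that array was not marked. The 6-array medians of 0.19 to 0.84 lost their size without saline replicate 1, and with array weights. The replicate block, in which leptin replicate 1 has no partner among the 5 arrays, turned Atp5g2 to 0.0611, Cox6b2 to 0.0355, Cox8b to 0.18 and Ndufv2 to 0.10. It also turned the medians of complexes I and V to 0.0298 and 0.0291, equal to those without leptin replicate 1, and changed no call. A common median turned the median of complex III to -0.00201, Cox8a to -0.00865 and Uqcrfs1 to -0.0117. Quantile normalization turned Ndufv2 to 0.0029, and array weights turned it to 0.0214 and Ndufs3 to 0.00031. As each array was left out, 18 of the 44 named values took both signs. The ranges were -0.16 to 0.0802 for Atp5d, -0.0749 to 0.0611 for Atp5g2, -0.14 to 0.0288 for Atp5g3, -0.055 to 0.16 for Atp5o, -0.10 to 0.0802 for Cox4i2, -0.36 to 0.0355 for Cox6b2, -0.0533 to 0.0666 for Cox8a, -0.25 to 0.18 for Cox8b and -0.10 to 0.20 for Ndufa4. They were -0.19 to 0.40 for Ndufs1, -0.098 to 0.0729 for Ndufs3, -0.19 to 0.0296 for Ndufv1, -0.11 to 0.10 for Ndufv2, -0.0271 to 0.16 for Sdhc, -0.44 to 0.19 for Sdhd, -0.0304 to 0.30 for Uqcrc1, -0.0657 to 0.20 for Uqcrc2 and -0.14 to 0.19 for Uqcrfs1. The cause was not tested. Signal limits the 8 member probe sets too dim for the test, and 2 saline arrays limit every interval.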
